A study of Mus musculus with 34 samples.

Results

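Of the 60537 CTCF peaks called in wild-type bone marrow-derived dendritic cells, 7414 overlapped the promoter of a protein-coding gene, and 4782 of these (64.5%, 95% Wilson interval 63.4 to 65.6) had no CTCF peak in the CTCF-deleted cells. These 4782 lost promoter sites are described here. They were chosen by 2 CTCF peak lists alone, as peaks of the wild-type list that share no base with a peak of the CTCF-deleted list and that reach into the 2500 bp on either side of the start of a gene's longest transcript. The 2632 promoter sites that overlapped a peak in both lists are called retained, and the 41384 lost peaks away from promoters serve as the other comparison. Over all 60537 wild-type peaks, 76.3% had no counterpart in the CTCF-deleted cells, so the share lost at promoters was below that of the whole list. These shares restate the rule and carry no test.

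Bone marrow-derived dendritic cells (BMDCs) are antigen-presenting cells grown from mouse marrow with the cytokine GM-CSF, here selected for the surface marker CD11c. The marrow came from 8-week-old C57BL/6 mice that carry the tamoxifen-inducible recombinase CreER, either alone (CreER, wild type) or with floxed alleles of the CTCF gene (CreER;CTCF fl/fl, deleted). Both genotypes received 4-hydroxytamoxifen at the start of the 6-day culture, so recombinase and drug are shared by all groups, and the control alleles are not floxed. Cells were left untreated (WT and KO) or given the bacterial endotoxin LPS at 100 ng/ml for 3 h (WTLPS and KOLPS), and for STAT5 the WT and KO cells were restimulated with GM-CSF for 15 min. Chromatin immunoprecipitation and sequencing (ChIP-seq) gave 30 peak lists, 1 per antibody and condition. Of 12 promoters of dendritic and myeloid marker genes, 12 carried H3K4me3 in each of the 4 conditions, against 1 of 10 for T and NK cell genes, 1 of 8 for neutrophil genes, 3 of 8 for B cell genes and 3 or 4 of 8 for erythroid and megakaryocyte genes. With 1 list per condition there is no replicate spread, so no p-value is given. Intervals on shares are 95% Wilson intervals that cover counting error only, and neighbouring sites are not replicates of a condition.

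CTCF is a zinc finger protein that binds a long directional motif and halts the cohesin complex as it extrudes chromatin loops, which places many loop anchors and domain borders at CTCF sites. Part of its binding lies at gene starts. SMC1 is a core cohesin subunit. H3K4me3 marks active or poised promoters and H3K27ac marks active promoters and enhancers, while H3K27me3 is the Polycomb mark of silenced genes and H3K4me1 is common at enhancers. p65 (RelA) is the NF-κB subunit that enters the nucleus after LPS, and STAT5 is the transcription factor switched on by the GM-CSF receptor.

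The sequences printed here were picked for holding a CTCF motif. They do not show which bases were bound and do not describe the sites without a match. Within 50 bp of the summit, 260 of the 4782 lost promoter sites (5.44%, 4.83 to 6.12) held a strict match to the CTCF core motif on either strand, against 11 (0.23%) in equal windows 1000 bp away. The 8 of them with the highest CTCF fold, leaving out those in exons, are printed below from the GRCm38 genome, 5′ to 3′ on the strand of the motif, with the motif in capitals and 20 bases on each side.
Ttc5 (chr14:50788344-50788395, minus strand): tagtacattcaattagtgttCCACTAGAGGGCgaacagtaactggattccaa
Ifitm3 (chr7:141009104-141009155, plus strand): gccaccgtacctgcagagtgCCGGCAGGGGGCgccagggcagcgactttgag
Rpl3 (chr15:80080783-80080834, minus strand): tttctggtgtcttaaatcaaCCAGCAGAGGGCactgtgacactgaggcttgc
Klhl24 (chr16:20097405-20097456, minus strand): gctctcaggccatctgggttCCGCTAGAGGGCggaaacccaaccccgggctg
Adamts14 (chr10:61275974-61276025, plus strand): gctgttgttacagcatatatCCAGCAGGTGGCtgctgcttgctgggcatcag
Epha7 (chr4:28808963-28809014, minus strand): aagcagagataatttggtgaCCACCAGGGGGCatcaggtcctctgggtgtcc
Etd (chrX:53433060-53433111, plus strand): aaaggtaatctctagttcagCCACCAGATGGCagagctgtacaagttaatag
Tctn1 (chr5:122266084-122266135, plus strand): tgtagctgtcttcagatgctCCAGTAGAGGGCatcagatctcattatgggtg
At Klhl24, a Kelch-like family gene, the CTCF summit lay at -102 bp from the start, and the motif was on the opposite strand to the gene. At Ifitm3, which encodes an interferon-induced antiviral membrane protein, the summit lay 1607 bp downstream of the start, outside protein-coding genes. Rpl3 encodes a protein of the large ribosomal subunit, and its motif lay in an intron.

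A match was also found in the 250 bases upstream of some starts. Among RefSeq promoters (GRCm38.p6, 250 bases before to 50 after the start), 1.4% of 32851 held the core motif, and 3.34% (131 of 3919) of those that belonged to the nearest genes of lost promoter sites did. Of 4104 nearest genes, 3185 had a RefSeq promoter. The upstream 250 bases of Col27a1, a fibrillar collagen gene, and Spef2, a sperm flagellum gene, are printed in the direction of transcription with the motif in capitals, since their CTCF summits lay at -183 and -181 bp from the start.
Col27a1 (chr4:63215162-63215411, plus strand): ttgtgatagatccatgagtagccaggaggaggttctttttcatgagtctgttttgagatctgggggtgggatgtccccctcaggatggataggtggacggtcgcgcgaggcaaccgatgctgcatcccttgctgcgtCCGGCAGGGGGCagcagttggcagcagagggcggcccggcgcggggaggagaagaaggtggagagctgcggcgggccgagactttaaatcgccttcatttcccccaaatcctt
Spef2 (chr15:9748869-9749118, minus strand): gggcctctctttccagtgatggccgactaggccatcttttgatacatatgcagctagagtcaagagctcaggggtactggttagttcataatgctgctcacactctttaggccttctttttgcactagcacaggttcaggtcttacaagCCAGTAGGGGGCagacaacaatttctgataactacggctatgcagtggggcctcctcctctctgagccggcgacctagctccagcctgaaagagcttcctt
In WT the CTCF fold at these sites was 16.5 at Col27a1 and 12.5 at Spef2.

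The motif was rarer at lost than at retained promoter sites (14.8%, 13.5 to 16.2) and close to its share at lost sites outside promoters (5.53%). Over all WT CTCF peaks it was 9.52%. Among the lost promoter sites, the share with a motif was 1.46% in the weakest of 5 equal groups of promoter sites by CTCF strength and 11.3% in the strongest, where retained sites had 21.5% (19.3 to 23.7). In the 3 weaker groups the retained shares were not the higher ones, at 0.0%, 0.592% and 6.02% against 1.46%, 3.27% and 7.03% at lost sites, and in the next group they were 13.5% and 11.4%, with overlapping intervals in these 4 groups. Of the 260 motifs, 138 (53.1%) pointed along the gene. The base composition followed the promoter: the median GC content within 50 bp of the summit was 50.5% at lost promoter sites with H3K4me3 in WT and 43.6% at those without, and it was 40.6% at lost sites outside promoters. The STAT5 and NF-κB motifs were no more common under the summits than beside them. TTCNNNGAA, the STAT5 motif, was found at 2.11% of summits and 2.84% of windows 1000 bp away, with 8.3% of all RefSeq promoters holding it. The NF-κB motif was found at 1.84% and 2.28%, with 8.46% of RefSeq promoters. ACTACAATT, a core of the ZFP143 motif, was found at 0.125% and 0.0836% (6 and 4 sites), with 0.393% of RefSeq promoters. The RefSeq promoters are longer than the summit windows, so their shares cannot be compared with those at summits. No match says only that these letters are not in the window.

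The lost promoter sites were weaker CTCF peaks than the retained ones. Fold here is the enrichment at a peak's summit over the local background in the authors' peak lists, and it depends on the depth and background of each library, so folds of different lists are set side by side without a test. The median WT fold was 5.91 at lost promoter sites, with quartiles of 4.43 and 8.9 and a range from 2.57 to 32.9. It was 16.5 at retained promoter sites. The median width was 537 bp against 1123 bp. Ranked by the peak q-value in 5 equal groups of promoter sites, the share lost ran 83.3%, 88.6%, 85.4%, 54.4% and 10.7% from weakest to strongest, so 159 of the 1483 strongest promoter sites were lost. The KO CTCF library was also shallower. The background that the peak caller used was 2.95 fragments per base in KO and 3.74 in WT. With the WT counts scaled to the KO background, 4118 of the 4782 sites (86.1%) were expected to have the counts to be called, against 94.8% of retained sites. This is a calculation on the WT peaks and not a test, and the part of depth in the loss was not tested. The mapped reads that the study reports for the WT and KO CTCF libraries differed less than these backgrounds.

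At the edge of the rule, 18 lost promoter sites had a KO peak within 100 bp and 453 within 1000 bp, while the median gap to the nearest KO peak was 14870 bp. Just inside, the site at Gins1 (fold 6.12) lay 7 bp from a KO peak, that at Atp2a2 (3.8) also 7 bp and that at Zc3h8 (4.6) 10 bp. Just outside, the sites at Cdc123, Ift80 and Bcl2l13 each shared 9 bp with a KO peak, with WT folds of 9.5, 4.85 and 4.64. A retained WT peak lay within 1000 bp of 461 lost promoter sites.

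Positions along the promoter were broad. The median distance from summit to start was 1236 bp, with quartiles of 551 and 2017 bp. The summit was upstream of the start at 58.2% of sites and within 500 bp at 23.0%, and the plot of distances shows the highest bin just upstream of the start. The peak covered the start at 12.4% of lost and 22.4% of retained sites. Summits fell in an exon at 14.4% of lost promoter sites, in an intron at 40.2% and outside protein-coding genes at 45.4%. Promoters of 2 or more genes shared 415 sites (8.68%). By autosome, the share of promoter sites lost ran from 60.2% to 68.8%, and on X it was 88.2% (82 of 93, 80.1 to 93.3). On Y it was 2 of 2.

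**Figure D1:**
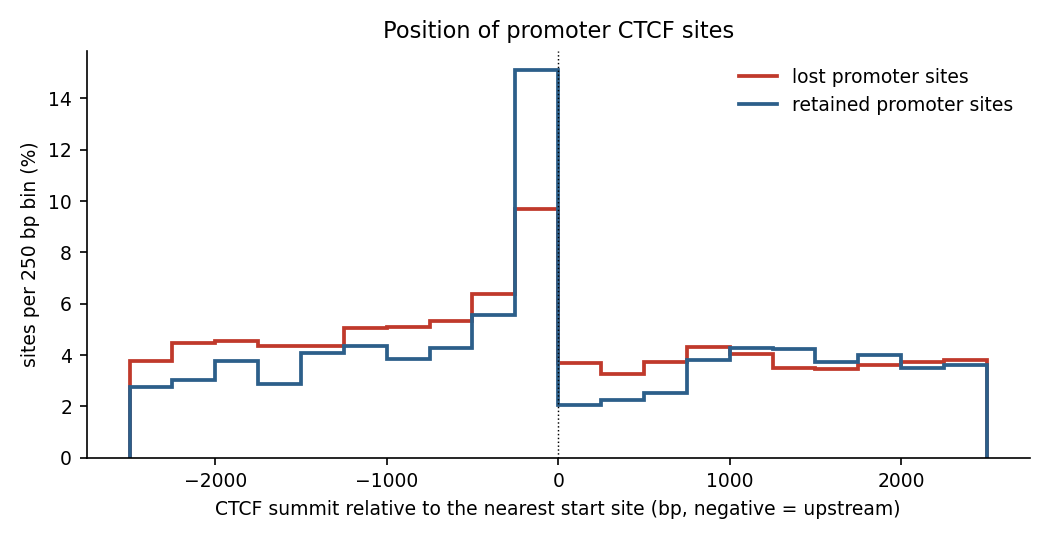
Share of CTCF sites (y axis, percent of the sites of each kind) by distance of the peak summit from the nearest start of a protein-coding gene (x axis, bp in 250 bp bins, negative upstream), for 4782 lost and 2632 retained promoter sites. The bin just upstream of the start holds the most lost promoter sites, 9.7%, and the sites spread over the whole window.

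The lost promoter sites belonged to 4450 promoters, 20.3% of 21938 protein-coding genes. Of these, 3768 had 1 lost site, 605 had 2, 71 had 3 and 6 had 4. A retained site was also present at 701 of them. Of the other 3749, 338 (9.02%, 8.14 to 9.97) had a KO CTCF peak elsewhere in the window. This was close to the 8.61% of promoters with no WT CTCF peak. Retained sites alone were found at 2016 promoters, and 15472 promoters had no WT CTCF peak.

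CTCF itself was seen in the other conditions as follows. In WTLPS, 3578 of the 4782 sites (74.8%, 73.6 to 76.0) had a CTCF peak, against 93.7% of retained sites and 73.5% of lost sites outside promoters. The share depended on strength, at 34.9% in the weakest group and 96.4% in the middle group, and all 807 and 159 sites of the upper 2 groups had one. In KOLPS, 54 sites (1.13%) had a peak. At the retained sites 59.3% did.

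**Figure D2:**
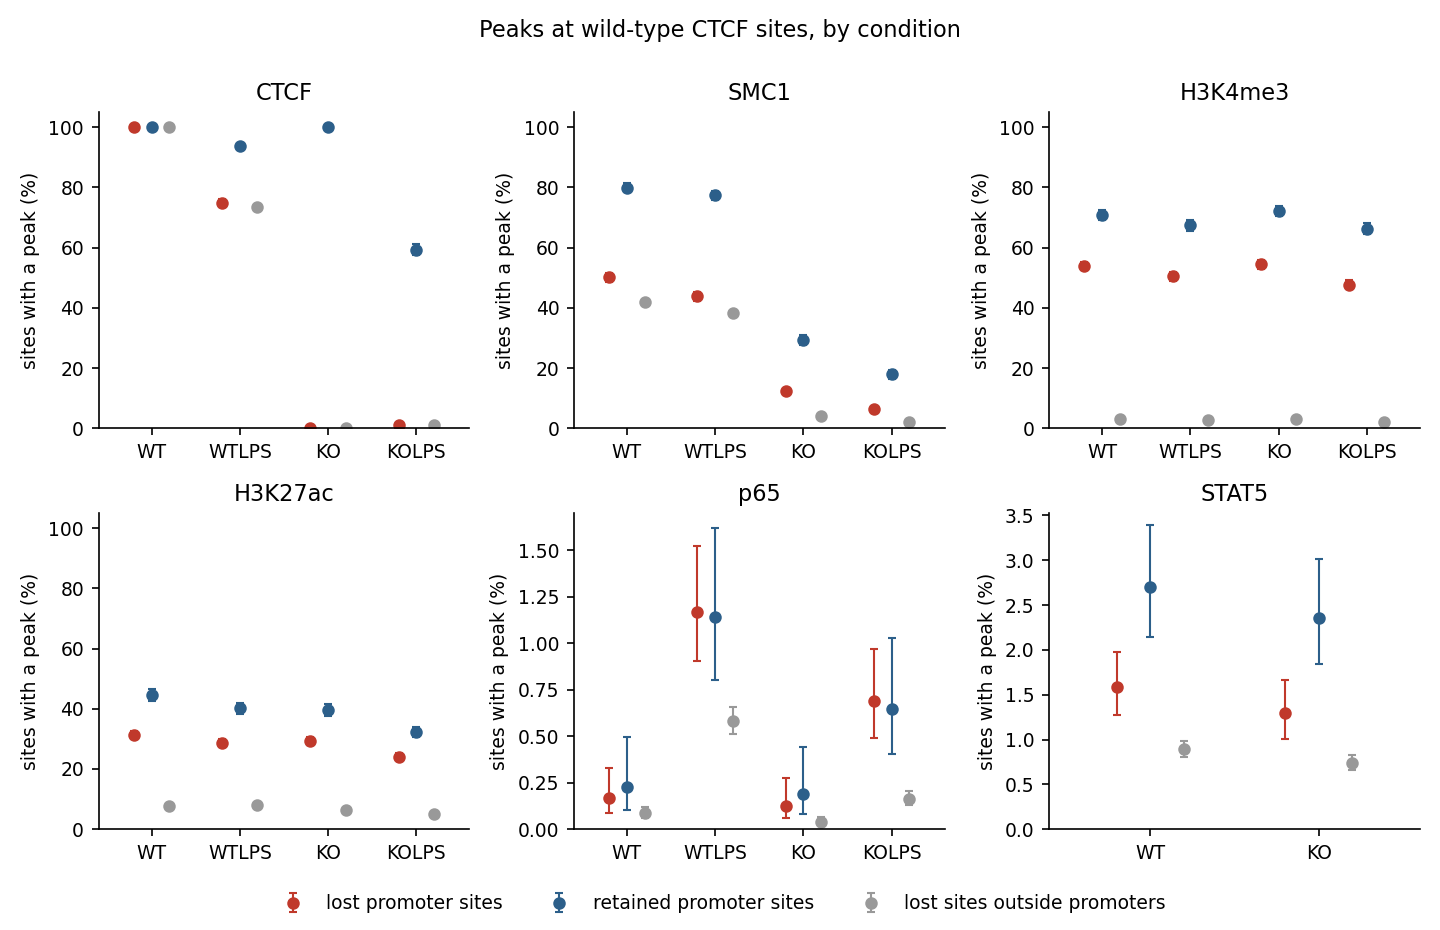
Share of sites with a peak (y axis, percent) for each antibody in WT, WTLPS, KO and KOLPS (x axis), at lost promoter sites (red), retained promoter sites (blue) and lost sites outside promoters (grey), with 95% Wilson intervals as bars. At lost promoter sites SMC1 is at 50.1% in WT and 12.2% in KO, while H3K4me3 is at 53.8% and 54.4%.

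Cohesin was the mark that differed most between genotypes at the lost promoter sites. SMC1 peaks lay over 2395 of the 4782 sites in WT (50.1%, 48.7 to 51.5) and 2096 in WTLPS (43.8%). In KO they lay over 583 (12.2%) and in KOLPS over 309 (6.46%, 5.8 to 7.19). The counts were lower in both CTCF-deleted conditions than in either wild-type one. Of the 2395 sites with SMC1 in WT, 508 also had it in KO (21.2%, 19.6 to 22.9), and 275 of 2096 (13.1%, 11.7 to 14.6) had it in both LPS conditions. These shares depend on the settings: with SMC1 looked for in the whole promoter window they were 45.0% and 31.4%, and with lists limited to a −log10 p of 10 they were 12.8% and 7.31%. Gains were few, 75 sites without LPS and 34 with it. In bulk chromatin, fewer cells with binding and less binding per cell cannot be told apart.

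SMC1 peaks were also lost at retained promoter sites, though less often. All of these sites had CTCF in KO by the rule, and 59.3% had it in KOLPS. At retained promoter sites 742 of 2104 WT SMC1 peaks (35.3%, 33.3 to 37.3) had a counterpart in KO and 22.4% did under LPS. At lost sites outside promoters 8.4% and 5.0% did. The 3 intervals did not overlap in either comparison. The KO SMC1 library had a background of 5.34 fragments per base against 5.4 in WT, and KOLPS had 4.5 against 5.76 in WTLPS. The background thus differed in the LPS contrast. Its part in the result was not tested.

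By CTCF strength, SMC1 in WT was found at 19.8% of the weakest and 96.9% of the strongest lost promoter sites. The share of these SMC1 peaks that had a counterpart in KO went the other way, at 33.9%, 23.9%, 22.1%, 16.7% and 7.79% from weakest to strongest. At retained sites it was 46.2% in the weakest, 24.0% in the middle and 38.4% in the strongest group. In the strongest group and the next one, the interval of the lost sites lay below that of the retained sites. In the weaker groups the intervals overlapped, and in the middle group the values were close. A site with a CTCF motif had SMC1 in WT more often (67.3% against 49.1% without), and 16.0% against 21.6% of those peaks were seen in KO.

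**Figure D3:**
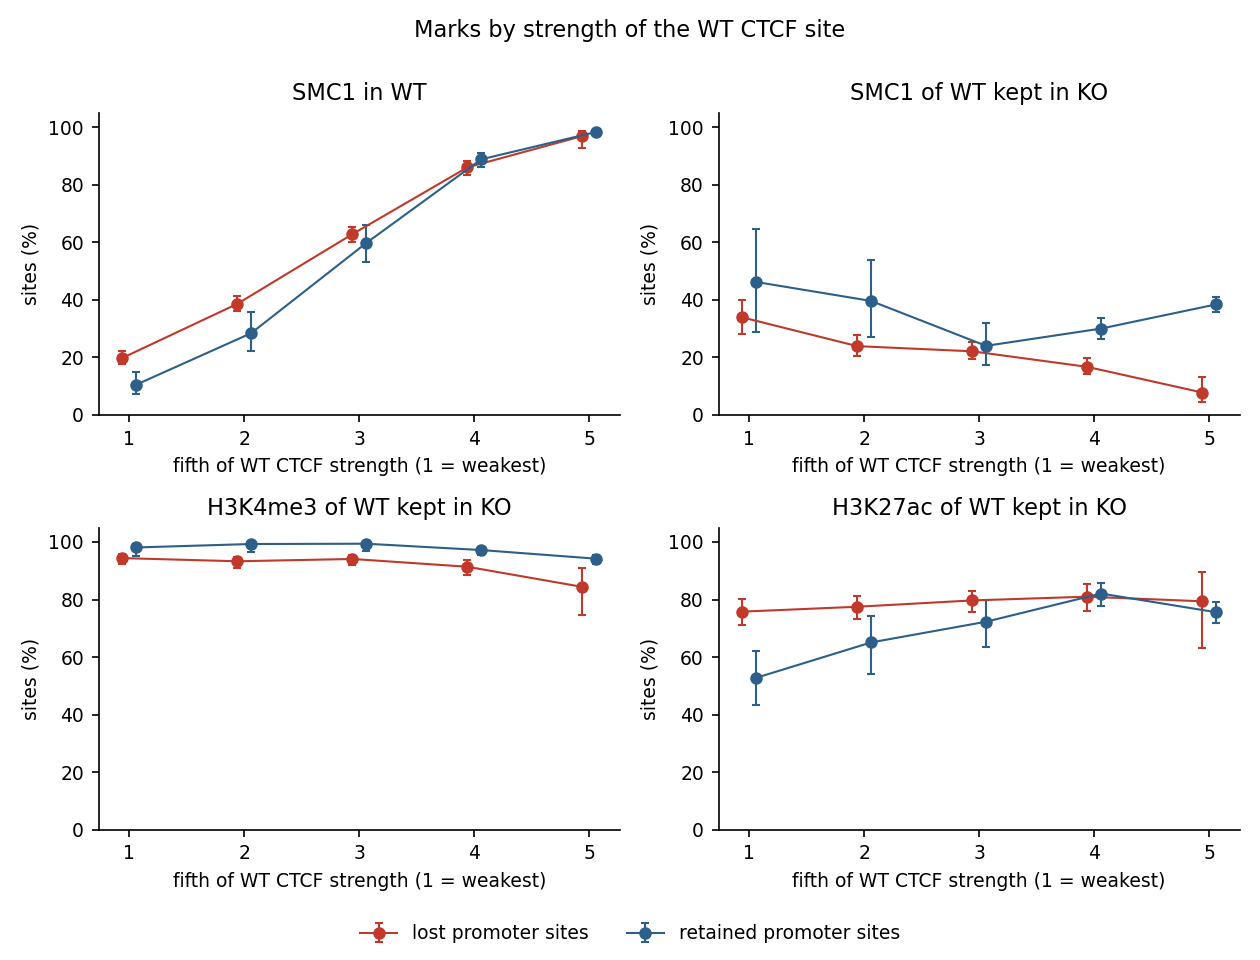
Lost (red) and retained (blue) promoter sites in 5 groups of WT CTCF strength (x axis, weakest to strongest): percent with an SMC1 peak in WT, and percent of WT peaks of SMC1, H3K4me3 and H3K27ac that had a counterpart in KO (y axis), with 95% Wilson intervals. At lost promoter sites SMC1 in WT goes from 19.8% to 96.9% and its share seen again in KO from 33.9% to 7.79%, while H3K4me3 lies between 84.4% and 94.4%.

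The SMC1 peaks seen again in KO lay where the chromatin was active. At the 1319 lost promoter sites with both H3K4me3 and H3K27ac in WT, 924 had SMC1 in WT and 398 of those (43.1%, 39.9 to 46.3) had it in KO. At the 180 sites with H3K27ac alone the share was 29.2% (35 of 120), and at the 1256 with H3K4me3 alone it was 9.16% (57 of 622). At the 2027 sites with neither mark 18 of 729 (2.47%, 1.57 to 3.87) had it. Both H3K27ac classes were above both classes without the mark, with no overlap of intervals. The median WT CTCF fold in these classes was 6.33, 6.33, 6.12 and 5.49.

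The same order was seen under LPS with the marks of WTLPS, at 28.8%, 19.7%, 5.12% and 1.49%. Retained promoter sites had 52.0%, 45.5%, 26.3% and 17.5% without LPS. The retained share was the higher one in all 4 classes, with overlapping intervals for H3K27ac alone. Where H3K27me3 lay over the lost promoter site in WT, 6 of 113 SMC1 peaks (5.31%) were seen again with H3K4me3 and 3 of 140 (2.14%) without it. Distance from the start went with this: within 500 bp of it 31.7% of SMC1 peaks were seen again, and from 2000 to 2500 bp 11.0%.

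**Figure D4:**
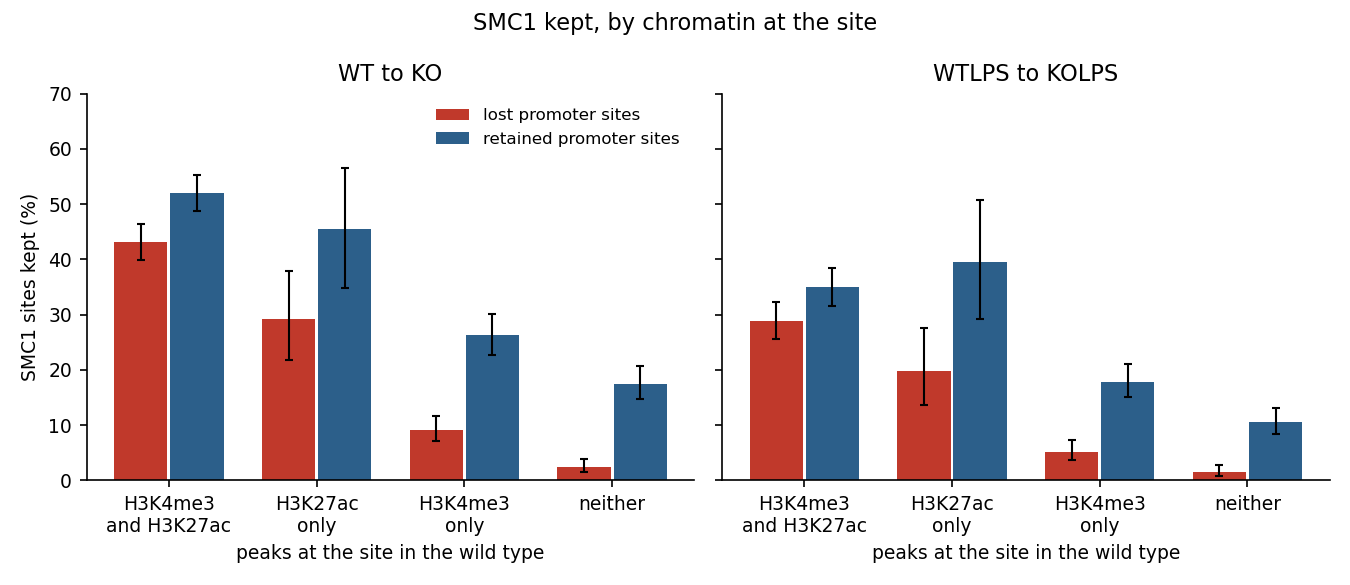
Share of SMC1 peaks at lost (red) and retained (blue) promoter sites with a counterpart in the CTCF-deleted cells (y axis, percent, bars from 0) by the H3K4me3 and H3K27ac peaks at the site in the wild-type condition (x axis), without and with LPS, with 95% Wilson intervals. At lost promoter sites the share runs from 43.1% with both marks to 2.47% with neither, and from 28.8% to 1.49% under LPS.

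The 12 lost promoter sites with the highest CTCF fold all had SMC1 in WT and WTLPS and in neither CTCF-deleted condition. Hspa1b, an inducible heat shock protein gene with a near-identical neighbour that could share reads, had the highest fold, 32.9 in WT and 26.7 in WTLPS, at chr17:34955755-34957012 in an exon. Its SMC1 fold was 28.3 in WT and 26.3 in WTLPS. Ttc5 had CTCF folds of 29.1 and 22.3 at chr14:50787314-50789700, upstream of the gene and 1045 bp from a KO CTCF peak. Itln1, which encodes a carbohydrate-binding lectin, had 28.1 and 17.6 in an intron at chr1:171532016-171533872. At Slc39a8, a zinc importer, CTCF folds were 27.4 and 22.7 and a weak peak of 4.45 was called in KOLPS. Efnb2, an ephrin ligand, had 26.0 and 18.3 with a KOLPS peak of 5.23, and its promoter site kept H3K4me3 with folds of 22.4, 21.4, 21.4 and 15.0 in WT, WTLPS, KO and KOLPS.

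At Ifitm3 the histone marks had higher folds in the LPS lists of both genotypes. At its site, chr7:141008034-141009639, the SMC1 fold was 23.1 in WT and 9.61 in WTLPS, and no peak was called in KO or KOLPS. H3K27ac was 4.28, 18.1, 4.58 and 22.3 in WT, WTLPS, KO and KOLPS. H3K4me3 was 13.8, 32.8, 6.62 and 16.4 in the same order. Of the remaining sites, those at Mfap5, Rnf212b and Scube1 had neither histone mark, and those at Eogt and Setmar had H3K4me3 in every condition.

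Among SMC1 peaks seen in WT and not in KO, the highest folds after the shared peak at Acss2 (29.8, over 2 lost sites beside a retained one) were at Hspa1b, then Mycl and Faap20 with 25.1 each. Mycl encodes a MYC family factor used by dendritic cells, and its site had an SMC1 fold of 20.4 in WTLPS and no peak in KO or KOLPS, with H3K4me3 at 20.2, 22.7, 19.5 and 21.2. Ston2 had 24.1 and Plekhg2 23.9. The promoters of Faap20 and Plekhg2 also held a retained CTCF site, with a WT CTCF fold of 20.7 in each, against 10.8 and 5.07 at the lost sites. Weaker SMC1 peaks were called in KO elsewhere in the promoter windows of Acss2 (5.52), Mycl (4.58), Faap20 (3.94) and Plekhg2 (5.05), and none in those of Hspa1b and Ston2. Among those seen again in KO, Tnfaip3, the gene of the NF-κB inhibitor A20, had the highest WT fold, with 25.8, 27.5, 15.1 and 3.82 in WT, WTLPS, KO and KOLPS at the site. Its promoter window, which also holds a retained CTCF site, had SMC1 at 16.4 in KOLPS. Med11, a Mediator subunit gene, had 16.9 in WT and 8.84 in KO. Cd164, a sialomucin gene, had 19.5 and 3.47, and Prkcd, a protein kinase C gene, had 16.7, 11.8, 5.52 and 4.73.

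H3K4me3 was found at nearly the same sites in both genotypes. In WT it lay over 2575 lost promoter sites (53.8%) and in KO over 2603 (54.4%). Under LPS the counts were 2413 (50.5%) and 2283 (47.7%). Of the WT sites 2399 also had it in KO (93.2%, 92.1 to 94.1), against 96.4% (95.5 to 97.2) at retained sites and 75.1% at lost sites outside promoters. Under LPS 89.8%, 93.5% and 65.1% did. Close to the start the share was 96.6% and from 2000 to 2500 bp it was 86.3%, and the mark itself was present in WT at 80.9% and 26.2% of those sites.

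Whole promoters changed less than the sites. Of the 3482 promoters with a lost site and an H3K4me3 peak in WT, 78 (2.24%, 1.8 to 2.79) had none in KO, and of 968 without one in WT, 57 (5.89%) had one in KO. Over all protein-coding promoters the losses were 1.89% and the gains 3.73%. Under LPS losses were 3.04% against 3.08% over all promoters and gains 2.71% against 2.22%. Losses were thus close to the background in both comparisons. Gains without LPS were above it, and they were 9.19% at promoters with retained sites only.

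Most of the sites with the highest H3K4me3 fold in one genotype and no peak in the other lay in promoters that had the mark in both. Among the 8 with the highest WT fold and no KO peak at the site, the promoter window had an H3K4me3 peak in KO in every case. Laptm5, a lysosomal membrane protein gene of blood cells, had an H3K4me3 fold of 44.9 at the site in WT and no peak there in KO, while the promoter had 44.9, 36.2, 44.1 and 20.3 in WT, WTLPS, KO and KOLPS. Gadd45a, a growth arrest gene, had promoter values of 41.7, 39.5, 34.1 and 23.5. The others were Ssb, Mastl, Polr3d, Flot1, Sars and Rps28. Of the 8 with the highest KO fold and no WT peak at the site, 7 had an H3K4me3 peak elsewhere in the promoter in WT, among them Cmtm6 (37.6 in WT, 47.7 in KO). At Atg3, an autophagy gene, no peak was listed in WT or WTLPS, with 43.6 in KO and 25.4 in KOLPS.

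H3K27ac was found at 31.3% of lost promoter sites in WT and 29.2% in KO, and under LPS at 28.6% and 24.1%. Of 1499 WT sites, 1176 also had it in KO (78.5%, 76.3 to 80.5), against 74.3% (71.7 to 76.7) at retained sites and 56.5% outside promoters. Under LPS the shares were 69.5%, 66.0% and 45.3%. By CTCF strength the untreated shares lay between 75.8% and 81.0%. Under LPS the share was 64.1% (58.7 to 69.1) in the weakest group and 74.2% in the strongest, and the interval of the weakest group lay below that of the middle group (74.0%, 69.4 to 78.1). The KO H3K27ac library had a background of 0.748 fragments per base against 1.17 in WT, and KOLPS had 0.801 against 1.2. This background was therefore lower in both CTCF-deleted lists, and its part was not tested. The mapped reads that the study reports for these libraries differed less between genotypes.

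By promoter, 170 of 2729 (6.23%) with a lost site and H3K27ac in WT had no peak in KO and 177 of 1721 (10.3%) gained one, against 6.83% and 6.07% over all promoters. Under LPS 9.13% lost the mark against 10.3%, and 10.8% gained it against 6.44%. Gains were above the background in both comparisons, and losses were not. Promoters with retained sites only gained the mark at 14.2% and 16.5%. Promoters with a lost site had H3K4me3 in WT more often than all promoters (78.2% against 56.7%), which this background does not allow for.

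Again the sites with the highest folds called in 1 genotype sat within promoters that had the mark in both. At Cd52, a surface antigen gene of leukocytes, H3K27ac at the site was 20.2 in WT, 22.8 in WTLPS and 21.7 in KOLPS with no peak in KO, and the promoter had 26.3 in KO. Serpinb9, a granzyme B inhibitor gene, had 17.9 and 20.5 at the site in WT and WTLPS, no peak in KO and 4.44 in KOLPS, with 15.4 and 13.3 in the promoter. The sites of Mrps18b, Mpdu1, Galnt10, Tomt, Neurl3 and Gabpb2 completed the 8, with WT folds from 15.6 to 20.7. Called in KO and not in WT were those at Zc3h4 (19.4 in KO), Gabarapl1 (18.3), Exosc5 (16.0), Txn2, Abhd11, Psmd8, Bivm and Tns3, and in all 8 the promoter had H3K27ac in WT.

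For the other histone marks, H3K4me1 covered 42.8% of lost promoter sites in WT and 40.7% in KO, and under LPS 43.0% and 27.9%. H3K27me3 covered 14.2% and 17.4%, and under LPS 9.33% and 6.67%. These are broad peaks, and the KOLPS lists held fewer of them over the whole genome, 79120 for H3K4me1 against 89884 in WTLPS and 26960 for H3K27me3 against 65880.

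By promoter, SMC1 was lost from 1582 of 2846 promoters with a lost site (55.6%, 53.8 to 57.4) from WT to KO, against 44.9% of all promoters with SMC1, and under LPS from 68.2% against 60.2%. At promoters with retained sites only it was lost from 52.6% and 69.3%. Gains were 11.7% against 6.97% over all promoters, and under LPS 7.09% against 4.27%. Losses and gains at promoters with a lost site were above the background in both comparisons. Promoters with retained sites only were above it too, in losses and in gains. Their gains were 14.5% (11.4 to 18.2) and under LPS 9.22% (6.94 to 12.2). As for H3K27ac, the background was not matched for H3K4me3 at the promoter.

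p65 met few of the lost promoter sites. Without LPS its peaks lay over 8 sites in WT and 6 in KO. With LPS they lay over 56 sites in WTLPS (1.17%, 0.903 to 1.52) and 33 in KOLPS (0.69%, 0.492 to 0.968). Of the 56, 16 (28.6%, 18.4 to 41.5) also had a peak in KOLPS, and 17 had one in KOLPS alone. At retained promoter sites it was 7 of 30 (23.3%) and at lost sites outside promoters 23.8%, with overlapping intervals. The WTLPS list held 5465 p65 peaks and the KOLPS list 1752.

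By promoter, p65 was gained on LPS in WT at 170 of 4421 promoters with a lost site (3.85%, against 2.43% of all promoters) and in KO at 129 of 4428 (2.91%, against 1.6%). From WTLPS to KOLPS it was lost from 134 of 197 (68.0%, against 69.1%) and gained at 83 of 4253 (1.95%, against 1.0%). The loss was close to the background. Gains were above it in each of the 3 comparisons. Promoters with retained sites only gained p65 at 2.7% on LPS in WT, with an interval that included the background (2.07 to 3.5). They gained it at 2.3% (1.73 to 3.05) on LPS in KO and 1.74% (1.25 to 2.43) from WTLPS to KOLPS, both above the background. This background too was not matched for H3K4me3, which was more common at promoters with a lost site than at all promoters.

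The 10 lost promoter sites with the highest p65 fold in WTLPS included chemokine, cytokine and NF-κB genes. At Cxcl2, a neutrophil-attracting chemokine gene, the site chr5:90902447-90903408 had p65 folds of 30.2 in WTLPS and 25.3 in KOLPS and no peak at the site in WT or KO. SMC1 there was 8.28, 17.6, 6.31 and 12.9 in WT, WTLPS, KO and KOLPS, and H3K27ac was 5.06, 14.6, 8.58 and 17.8. Both SMC1 and H3K27ac were higher in the LPS list of each genotype. Ccl3, a chemokine gene for monocytes and T cells, had p65 at 9.72, 28.6, 9.38 and 23.1, and SMC1 at 13.3, 18.8, 10.1 and 9.83.

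At Il6, the gene of an inflammatory cytokine, the lost site lay at chr5:30012988-30013348, with its summit 88 bp downstream of the start. CTCF there was 6.33 in WT and 5.29 in WTLPS, and the nearest KO CTCF peak was 1344 bp away. The promoter also held a stronger, retained CTCF site, with folds of 23.2 in WT, 15.4 in WTLPS and 4.3 in KO. p65 was 16.2 in WTLPS and 6.6 in KOLPS, SMC1 was 7.65, 13.7, 6.15 and 10.6, and H3K27ac was 6.9, 23.7, 8.58 and 11.7. The site thus had p65, SMC1 and H3K27ac in KOLPS, each at a lower fold than in WTLPS.

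Nfkb2, the gene of an NF-κB subunit precursor, had p65 in all 4 conditions, at 10.5, 17.8, 10.6 and 11.6. Sbds had 25.3 in WTLPS and 13.2 in KOLPS, and Nab2, the gene of a corepressor of EGR factors, had 11.9 and 11.6. Bcl2a1a and Bcl2a1b, near-identical survival genes that can share reads, had 15.1 and 13.5 in WTLPS and 4.95 and 8.26 in KOLPS. At Myo1g and Myo1f, genes of leukocyte myosins, p65 was 13.5 and 11.3 in WTLPS and no peak was called over the site in KOLPS, while H3K27ac was 26.1 and 7.77 there. Elsewhere in the Myo1g promoter a p65 peak of 16.0 was called in KOLPS.

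**Figure D5:**
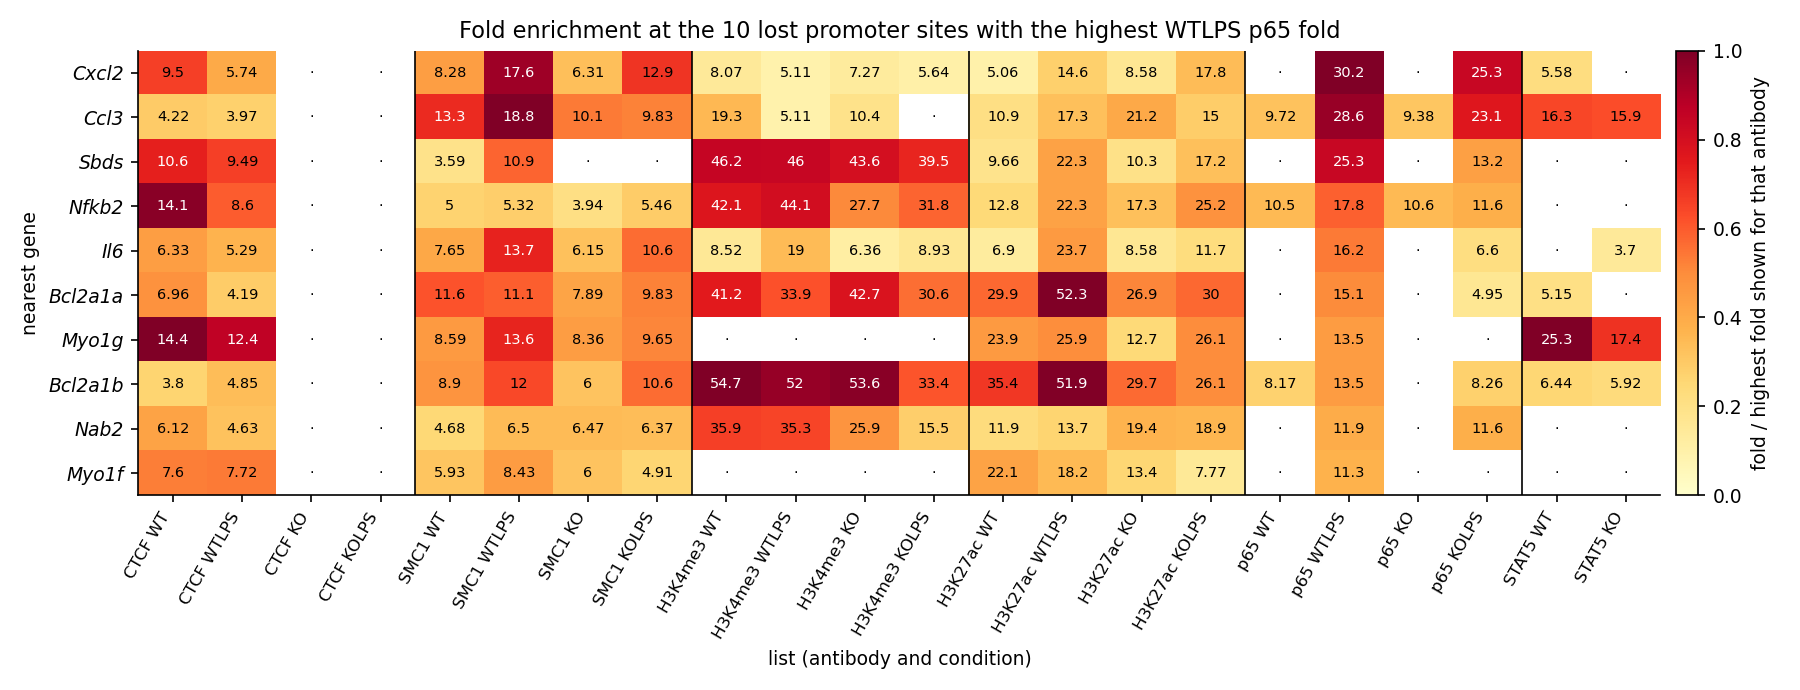
Fold enrichment at the 10 lost promoter sites with the highest p65 fold in WTLPS (rows), in each peak list (columns by antibody and condition). Colour gives the fold divided by the highest fold shown for that antibody, and a dot marks no peak: CTCF has none in KO or KOLPS, while p65 is called in KOLPS at 8 of the 10.

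The labels name an antibody to STAT5, and the study's methods give in one place the catalogue number of its antibody to phosphorylated STAT5, so which form was precipitated is not settled. STAT5 peaks lay over 76 lost promoter sites in WT (1.59%, 1.27 to 1.98) and 62 in KO (1.3%, 1.01 to 1.66). Of the 76, 46 (60.5%, 49.3 to 70.8) had STAT5 in KO, and 16 sites had it in KO alone. Retained promoter sites had 70.4% (59.0 to 79.8) and lost sites outside promoters 64.1%. By promoter, 88 of 277 (31.8%, against 32.6% of all promoters) lost STAT5 and 28 of 4173 (0.671%, against 0.645%) gained it. Both shares were close to the background. The KO STAT5 library had the higher background coverage, 1.7 against 1.33 fragments per base.

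The highest STAT5 fold was at Prkcd, at chr14:30626948-30627720 upstream of the gene, with 54.5 in WT and 50.7 in KO. All 10 sites with the highest WT fold had STAT5 in KO. At 9 the fold was lower there, but the sites were picked by their WT fold, so this count does not measure a change. Myo1g had 25.3 and 17.4, and Mob3b 19.3 and 13.7. The site nearest to Tnp2 also lay in the promoter window of Socs1, the feedback inhibitor of JAK kinases and a textbook STAT5 target, and its fold was 22.3 in WT and 9.83 in KO. Ikzf2, the gene of the transcription factor Helios, was the only one of the 10 with the higher value in KO, 22.2. Among sites with STAT5 in KO alone, Tarm1 (12.9), Necap1 (11.5), Tmem104 (10.4), Dhrs9 (9.61) and Nfil3 (9.24) had the highest folds. All 5 of these promoters had a STAT5 peak elsewhere in the window in WT, with folds of 7.3, 21.5, 10.5, 15.0 and 10.3 in the same order.

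Lost promoter sites were spread over genes of many kinds, against 20.3% of all protein-coding genes. In Toll-like receptor and NF-κB signalling 14 of 50 genes had one (28.0%, 17.5 to 41.7). The promoters of all 14 had H3K4me3 in WT and KO, 13 had H3K27ac in WT and 14 in KO, and 13 had SMC1 in WT and 12 in KO. They included the receptors Tlr2, Tlr3 and Tlr6, the adaptors Ticam1 and Tirap, the kinases Irak1, Irak3 and Map3k8, the NF-κB proteins Nfkb2, Nfkbie and Bcl3, and Traf3, Irf7 and Tnfaip3. At the Map3k8 promoter, the SMC1 fold was 14.7, 11.2, 6.0 and 6.73 in WT, WTLPS, KO and KOLPS. At Tlr3, SMC1 was 5.78 in WT and not called in the other 3 lists. At Irak3, a negative regulator of the pathway, SMC1 was 16.9, 14.2, 3.94 and 4.55 at a promoter with 2 lost sites and 1 retained site.

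Of 45 cytokine and chemokine genes 13 had a lost site (28.9%, 17.7 to 43.4). SMC1 was present at 13 of these promoters in WT and 10 in KO, H3K4me3 at 9 and 8, H3K27ac at 11 and 10, and p65 at 8 in WTLPS and 6 in KOLPS. Ccl7, a monocyte chemokine gene, had SMC1 at 14.1 in WT and 14.5 in WTLPS, no peak in KO or KOLPS and no H3K4me3 or H3K27ac in any list, while H3K27me3 was 3.2 in WT and 2.93 in KO. At Il12b, the gene of the shared IL-12 and IL-23 subunit, p65 was 10.8 in WTLPS and not called in KOLPS, and H3K27ac was 5.98 in WT, 12.3 in WTLPS, not called in KO and 5.0 in KOLPS. Cxcl3, with 2 lost sites and 1 retained, had SMC1 at 16.2, 14.8, 4.1 and 4.0 and p65 of 10.2 in WTLPS with no peak in KOLPS. Ifnb1, Il33, Ltb, Ccl4, Ccl9, Cxcl16 and Tgfb1 were the others beside Ccl3, Cxcl2 and Il6.

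In GM-CSF receptor and JAK-STAT signalling 11 of 33 genes had a lost site (33.3%, 19.8 to 50.4), and all 11 promoters had H3K4me3 in both genotypes. Csf2ra, the GM-CSF receptor alpha chain gene, had the lowest CTCF fold of all members, 2.57. Socs1 and Bcl2l1, a survival gene, were the 2 with STAT5 in KO, and Stat3 and Ptpn11 had it in WT alone. At the promoter of Bcl2l1 STAT5 was 10.7 in WT and 6.66 in KO. Tyk2, Ptpn6, Grb2, Mcl1, Pias1 and Pim2 completed the group.

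Antigen presentation and costimulation had 8 of 32 (interval 13.3% to 42.1%), with H3K4me3 and H3K27ac at all 8 promoters in WT and KO. H2-Ab1 and H2-Aa, the genes of the MHC class II I-A chains, had CTCF folds of 15.0 and 10.3 in WT. H3K4me3 at the H2-Ab1 promoter was 29.9, 35.7, 45.4 and 33.0 in WT, WTLPS, KO and KOLPS, and at H2-Aa it was 20.6, 23.2, 34.5 and 15.5. Ccr7, the lymph node homing receptor gene, had SMC1 at 4.84 and 5.17 in the wild-type lists and no peak in those of the CTCF-deleted cells. Cd74, Icosl, H2-Oa, Tap2 and Psmb10 were the others.

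Myeloid and dendritic cell transcription factors had 21 of 51 (41.2%, 28.8 to 54.8), an interval above the 20.3% of all genes. The intervals of cohesin and chromosome architecture, cytosolic ribosomal proteins and clustered protocadherins were also above it. Promoters with a lost site had H3K4me3 in WT more often than all promoters (78.2% against 56.7%), which the 20.3% does not allow for. All 21 promoters had H3K4me3 in both genotypes and SMC1 in WT, and 17 had SMC1 in KO. The 4 without SMC1 in KO were Egr1, Egr3, Bach2 and Pparg. At Klf4, a monocyte factor, SMC1 was 13.7 in WT, 12.7 in WTLPS and 3.63 in KO with no peak in KOLPS. At Batf3, a factor of cross-presenting dendritic cells, it was 11.7, 10.8, 5.52 and 3.66. At Fosl2, an AP-1 factor, it was 18.6, 14.2, 10.7 and 6.92, and at Runx1 14.2, 9.02, 9.62 and 8.92. Runx1, Klf6 and Nr4a3 had STAT5 in WT and not in KO.

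Of 36 genes of cohesin and chromosome architecture 14 had a lost site (38.9%, 24.8 to 55.1), among them Ctcf itself, with a CTCF fold of 5.7 in WT and 5.07 in WTLPS and no KO or KOLPS peak at its promoter. H3K4me3 at the Ctcf promoter was 41.7, 28.8, 30.9 and 21.6 in WT, WTLPS, KO and KOLPS. The cohesin genes Stag1, Stag2, Pds5a, Esco1, Esco2 and Mau2 were in the group. SMC1 was present at 8 of the 14 promoters in WT and 6 in KO, with 4 in both. Cytosolic ribosomal protein genes had 34 of 87 (39.1%, 29.5 to 49.6), and all 34 promoters had H3K4me3 and H3K27ac in WT and KO. SMC1 lay at 20 of these in WT and 21 in KO, with 13 in both. At Rpl3, SMC1 was 6.25, 7.69, 9.15 and 6.73 in WT, WTLPS, KO and KOLPS.

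The share was 25.3% for mitochondrial ribosomal proteins (19 of 75), 24.3% for the cell cycle and DNA replication (18 of 74), 23.0% for numbered zinc finger genes (84 of 365), 17.9% for Hox clusters (7 of 39) and 17.6% for imprinted genes (6 of 34). Of the clustered protocadherins, neuronal adhesion genes with a CTCF site at many promoters, 19 of 38 had a lost site (interval 34.8% to 65.2%). Few of these promoters had cohesin or an active mark: 1 of the 19 had SMC1 in WT and none in KO, and 2 had H3K4me3 in WT and none in KO. The lists were not chosen independently of these data, so the shares are descriptions.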

How the data were processed

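ChIP-seq peaks of 8 antibodies in 4 conditions were analysed, with the labels giving 34 samples, of which 30 have a peak list and 4 are inputs. The study states 2 biological replicates per condition. It says in one place that replicates were merged after a check of their reproducibility and in another that peaks were called per sample and replicate, so the lists, 1 per condition, may hold merged replicates. Per the labels and their processing notes, the authors used BWA 0.7.12, Picard 1.77, MACS2 2.1.2 and deepTools 3.1.3 on mm10. The fold enrichment and the −log10 p and −log10 q values of each peak were deposited by the authors as their peak caller wrote them, and the lowest −log10 p was 7.0 in the KO CTCF list and 3.15 in the KO H3K4me3 list. Read depth is not in the lists. A background coverage per list was recovered from the fold and −log10 p of weak peaks.

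Starts were those of the longest transcript of each of 21938 protein-coding genes (GENCODE, GRCm38), with 2500 bp on each side. A site had a mark where the CTCF peak shared at least 1 bp with a peak of that list. Shares carry 95% Wilson intervals. Each motif was matched to either strand of the 50 bp beside a summit. Named sites were the highest by fold in each class: 12 for CTCF, 10 for p65, 10 and 5 for STAT5, and 8 each for SMC1, H3K4me3 and H3K27ac, together with the genes of the first 6 gene lists. Of the listed symbols 3 were not found in the annotation. The members and gene lists were chosen with earlier results of these data known. The overlap and coverage code was tested on simulated data (Python 3.11.15, numpy 2.4.6, pandas 2.3.3, scipy 1.17.1, matplotlib 3.10.9). The closing part gives the effect of 8 alternative settings.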

Additional observations from a re-analysis of the deposited data

Results flagged for a closer look

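The share of lost promoter sites with H3K4me3 moved in opposite directions in untreated and LPS-treated cells. It was 0.6 percentage points higher in KO than in WT, and the difference KOLPS minus WTLPS was -2.8 points. The share with H3K27me3 did the same, with 3.2 points between KO and WT and -2.66 points between KOLPS and WTLPS. Neither was particular to these sites. At retained promoter sites H3K4me3 was at 70.7% in WT, 72.2% in KO, 67.4% in WTLPS and 66.3% in KOLPS. H3K27me3 was at 11.9%, 17.7%, 8.05% and 6.95% there, and at 10.4%, 12.1%, 5.86% and 3.42% at lost sites outside promoters. H3K4me3 outside promoters was lower in both CTCF-deleted lists. At lost promoter sites its WT and KO intervals overlapped (52.4 to 55.3 and 53.0 to 55.8). Every share rests on 1 list per condition, so the difference between untreated and LPS-treated cells was not tested. The KOLPS list held 26960 H3K27me3 peaks against 95080 in KO, and 20960 H3K4me3 peaks against 25460.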

How the results depend on the processing

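Over 11 counts and shares and 8 alternative settings, 44 of 84 values stayed within the interval of the reported share or within 1.5 times the reported count, and 40 moved outside; the cause was not tested. Shares for SMC1, H3K4me3 and H3K27ac are of wild-type peaks seen again in the CTCF-deleted cells, and where a pair is given the latter is under LPS. Requiring 50% of the site to be covered gave 86.1% of promoter sites lost, SMC1 16.2% and 8.35%, H3K4me3 under LPS 87.8%, and H3K27ac 65.8% and 52.5%. Lists limited to −log10 p of 10 gave 68.6% lost, SMC1 12.8% and 7.31%, H3K4me3 under LPS 88.4%, H3K27ac 74.3% and 64.2%, and 80.5% of sites with CTCF in WTLPS. A promoter of 1000 bp on each side gave 2509 lost sites, 61.4% lost, SMC1 26.4% and 16.6%, H3K4me3 95.2% and 92.9%, and H3K27ac 83.1% and 74.2%. The starts of all transcripts gave 9240 lost sites, 69.7% lost, SMC1 15.1% and 9.1%, H3K4me3 under LPS 88.2%, and H3K27ac 74.9% and 65.7%. Looking for each mark in the whole promoter window gave SMC1 45.0% and 31.4%, H3K4me3 97.5% and 96.7%, H3K27ac 93.2% and 90.1%, and CTCF in WTLPS 84.7%. The stronger sites, above the median of their WT −log10 q, gave SMC1 18.5% and 11.3%, H3K27ac under LPS 73.8%, and CTCF in WTLPS 97.2%. Leaving out the sites within 1000 bp of a KO CTCF peak, chosen after seeing the data, gave 62.2% lost. The shares of p65 and STAT5 peaks seen again in the CTCF-deleted cells stayed within their intervals. For the shares of sites with a mark, 47 of 108 values stayed within the interval, 19 were higher and 42 lower. With 50% of the site covered, SMC1 in KO was 6.55%, H3K27ac in WT 17.3%, p65 0.408% in WTLPS and 0.219% in KOLPS, and STAT5 0.58% in WT and 0.408% in KO. The starts of all transcripts gave H3K4me3 in WT 32.7%. No paired analysis was possible because each condition has 1 list and no result comes from a test. Peak lists carry no read counts, so a site called in 1 list and not in another can differ by little, and depth limits the weak sites most.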
